A study of Mus musculus with 48 samples.

Results

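Hippocampal microglia of mouse pups reared with limited bedding (LB) were compared with microglia of pups reared under control conditions (CTL) across a panel of glial genes. All 478 genes of the CTL and LB table entered the description, of 478 genes in the whole series. Microglia came from 16 CTL and 16 LB pups of the strain Balbc/Byj, with 8 males and 8 females in each group, all 17 days old. The remaining 16 of the 48 pups were reared under a further condition, UPS, which as background stands for unpredictable postnatal stress. RNA in a lysate of about 60000 purified cells per pup was counted with fluorescent barcodes (nCounter), which tag single RNA molecules without amplification.

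As background, microglia are the resident macrophages of the brain. In the young hippocampus they survey synapses, engulf dying cells and debris, and tag material for removal with complement. They keep their mature state through signals such as TGF-beta and colony-stimulating factor 1. In limited bedding, the dam is given too little nesting material, and her care becomes fragmented. The comparison asks whether this rearing was accompanied by a different profile of microglial transcripts.

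Each gene's log2 ratio and p-value come from the authors' deposited table, with the sexes pooled and batch as a covariate. The headers do not name the numerator, so signs are given as deposited. If LB is the numerator, a gene with a positive ratio has more transcript in LB. If CTL is the numerator, every sign turns. No values per library entered, so depth, levels and the number of pups sharing a direction are unknown, and the cell label could not be checked against marker levels. In bulk samples, fewer cells of a type and less RNA per cell cannot be told apart. Each rearing group and sex drew its pups from 4 to 5 litters, and p-values that ignore litter are too small where littermates are alike.

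No gene passed an adjusted p below 0.05 between CTL and LB (0% of 478 by Benjamini-Hochberg adjustment of the deposited p-values), and no gene is therefore said to have changed. The smallest adjusted p in the authors' deposited table was 0.101. An unadjusted p below 0.05, called the unadjusted threshold from here on, was met by 56 genes (11.7%). Of these 32 had a positive ratio (6.69%) and 24 a negative one (5.02%). These percentages are the background for every list described here. A list's counts cover the genes written on it, not every measured gene of that kind. Bonferroni adjustment is never less strict and therefore passed none either. With the p-values of all 3 rearing comparisons adjusted together 3 genes passed, among them Ywhah and Cd34.

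Most ratios were close to 0. The median log2 ratio over all genes was 0.0035, and the middle 50% of the genes lay between -0.046 and 0.041. The median size was 0.043, or 1.03-fold. Only 61 genes had a ratio past 1.1-fold, 21 past 1.2-fold and 4 past 1.5-fold in the authors' deposited table. Those 4 were Mki67, Ifit3, Trim17 and, on the negative side, Sh2d1a. Of the 56 genes at the unadjusted threshold, 47 differed by less than 1.2-fold and 31 by less than 1.1-fold.

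The deposited ratio and p of a gene give back its standard error, and with it a 95% interval. The median standard error was 0.050 on the log2 scale. For 393 genes (82.2%) the whole interval lay within 1.2-fold of equality, and for 217 (45.4%) within 1.1-fold. Taken at face value, the table therefore bounds most genes closely, although a p above the threshold does not by itself show equal levels. The intervals rest on p-values that ignore litter, so every interval given here is too narrow where littermates are alike. The other 85 genes could differ by more than 1.2-fold, and the intervals of 25 reached 1.5-fold. The narrowest interval belonged to the ATP synthase gene Atp5pb, with a log2 ratio of -0.039 and an interval of 0.944-fold to 1.00-fold, with Spi1, Epb41l2 and Siglech also among the 5 narrowest. Spi1, the transcription factor that specifies macrophages, ran from 0.957-fold to 1.02-fold. Epb41l2, a membrane skeleton protein, ran from 0.994-fold to 1.06-fold.

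Large ratios did not always come with small p-values, and 9 of the 21 genes past 1.2-fold were at the unadjusted threshold. Among the 120 genes with the smallest standard errors the median size of the log2 ratio was 0.026, and 11 genes (9.17%) were at that threshold. Among the 120 with the largest standard errors the median size was 0.12 and 17 genes (14.2%) were at it. Positive ratios made up 63.3% of the former, 45.8% of the latter and 52.7% of all 478 genes.

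**Figure D1:**
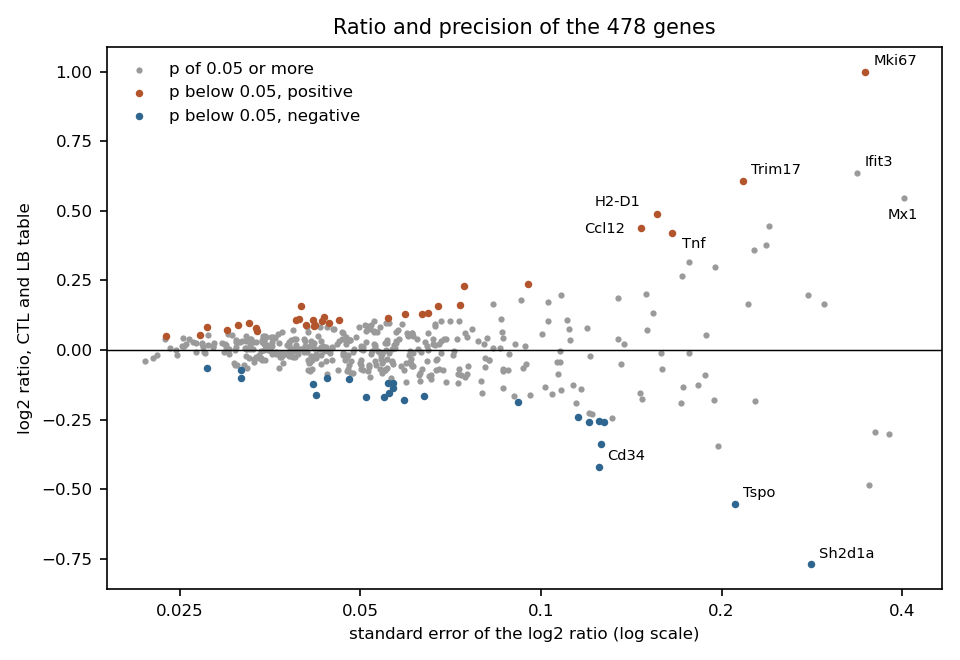
Log2 ratio of each of the 478 genes in the CTL and LB table (vertical axis) against its recovered standard error (horizontal axis, log scale). Each point is a gene, coloured by sign where the unadjusted p was below 0.05. The points fan out to the right, and Mki67, Trim17, Sh2d1a and Tspo combine large ratios with large standard errors.

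Most measured genes on the list of homeostatic microglia lay close to equality between CTL and LB, as did most of the panel. Intervals within 1.2-fold were found for 24 of 31, beside 393 of all 478 genes (82.2%). Positive ratios were found in 18 of the 31 and negative ones in 13, with a median of 0.024 (0.0086 without the 120 genes with the largest standard errors). At the unadjusted threshold 2 were positive and 3 negative (16.1% of the list, beside 11.7% of all genes), and none passed after adjustment. The fractalkine receptor Cx3cr1, through which neurons restrain microglia, had an interval of 0.957-fold to 1.03-fold. Csf1r, the receptor that microglia need to survive, ran from 0.927-fold to 1.02-fold. Differences above 1.1-fold lay outside both of these intervals.

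The homeostatic genes at the unadjusted threshold went in both directions. Olfml3, a secreted protein of microglia, had a log2 ratio of -0.17 in the authors' deposited table (interval -0.28 to -0.060, p = 0.00334, adjusted p = 0.194 by Benjamini-Hochberg). The transcription factor Sall3 was at -0.26 (p = 0.0387) and the TGF-beta receptor Tgfbr1 at -0.071 (p = 0.0306). With a positive ratio stood Sparc, a matrix-binding glycoprotein, at 0.11 (p = 0.00762) and the sialic acid lectin Siglech at 0.050 (p = 0.0398) in the authors' deposited table. The purinergic receptors P2ry12 and P2ry13, which steer microglial processes towards injury, were at 0.082 (p = 0.0510) and 0.074 (p = 0.0629). Tmem119, a microglial surface protein, was at -0.19 with a wide interval of 0.747-fold to 1.03-fold. Its interval could not exclude a difference of 1.2-fold, unlike those of P2ry12, Cx3cr1 and Csf1r.

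TGF-beta signalling, which holds microglia in their mature state, was measured through 4 genes. Apart from Tgfbr1, the ligand Tgfb1 was at 0.029, the pathway inhibitor Pmepa1 at 0.028 and the signal transducer Smad3 at -0.014 in the authors' deposited table. The list had 2 positive and 2 negative ratios. All 4 intervals lay within 1.2-fold.

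The Trem2 receptor complex, which senses lipids and drives phagocytosis, showed no gene at the unadjusted threshold among 6 measured. Trem2 itself had a log2 ratio of -0.013 in the authors' deposited table with an interval of 0.942-fold to 1.04-fold, and its adaptor Tyrobp 0.025 with 0.977-fold to 1.06-fold. The inhibitory lectin Cd33 had the smallest p, at 0.076 (p = 0.0984). Of the PI3K and Akt genes downstream, Pik3cb was at -0.069, the regulatory subunit Pik3r1 at -0.011 and Akt1 at 0.0083. All 6 intervals lay within 1.2-fold.

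Of 18 genes of the disease-associated state, a programme that microglia enter around damaged tissue, 6 had a positive and 12 a negative ratio (median -0.012). Only the lysosomal protease Ctsd reached the unadjusted threshold. The lipoprotein lipase Lpl was at -0.24 (p = 0.0715) and the growth factor Csf1 at 0.20 (p = 0.0765) in the authors' deposited table, each with a wide interval. Apoe, a lipid carrier, was at -0.0042 with an interval of 0.916-fold to 1.09-fold.

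Complement C1q, which tags synapses and debris for engulfment, had negative ratios for each of its 3 chains. In the authors' deposited table C1qb was at -0.099 (interval -0.16 to -0.035, p = 0.00315, adjusted p = 0.194 by Benjamini-Hochberg), C1qa at -0.063 (p = 0.0281) and C1qc at -0.028 (p = 0.420). The sizes were small, and the C1qb interval ran from 0.893-fold to 0.976-fold. The complement receptors had the opposite sign, with Itgam, a chain of the receptor for cleaved C3, at 0.052 and the C3a receptor C3ar1 at 0.020. Thus 2 of the 5 genes on the complement list (40%) were at the unadjusted threshold, both negative, and none passed after adjustment. C1ra, a gene of the C1r protease that is not on the list, was at -0.15 (p = 0.298). As background, the 3 C1q chains are encoded by adjacent genes with shared regulation, so their ratios are not independent.

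Receptors and bridging ligands of phagocytosis went in both directions. Positive ratios made up 6 and negative ones 7 of 13 measured genes, with a median of -0.0036 that turned to 0.00099 without the 120 genes with the largest standard errors. Gas6, which bridges dying cells to receptors such as Mertk, was at 0.13 (p = 0.0445) in the authors' deposited table. Cd14, the co-receptor that hands lipopolysaccharide to Tlr4, was at -0.12 (p = 0.0415), and the Fc receptor Fcgr4 at -0.23 (p = 0.0640). Mertk, the receptor itself, was at 0.020 with an interval of 0.957-fold to 1.07-fold. The phagocyte oxidase gene Ncf1 was at -0.058.

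The Toll-like receptors, which detect microbial products and nucleic acids, had 4 negative and 2 positive ratios with Cd14 and the adaptor Ticam1 included. As deposited by the authors, Tlr3 was at -0.11 (p = 0.0628), Tlr2 at -0.060 (p = 0.253), Tlr7 at -0.043 (p = 0.482), Tlr4 at 0.015 (p = 0.718) and Ticam1 at 0.032 (p = 0.640). Only Cd14 was at the unadjusted threshold. All 6 intervals lay within 1.2-fold, and the lowest bound was 0.850-fold, for Tlr3.

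The 9 measured genes on the list of cytokines, chemokines and NF-kB genes each had a positive ratio, with a median of 0.17 against 0.0035 over all genes. The authors' deposited table gave Ccl12, a chemokine that attracts monocytes, a log2 ratio of 0.44 (interval 0.14 to 0.73, p = 0.00475, adjusted p = 0.194 by Benjamini-Hochberg). Tnf, a cytokine of early inflammation, was at 0.42 (interval 0.087 to 0.75, p = 0.0148). These were the 2 of 9 (22.2%) at the unadjusted threshold. Il1a was at 0.16 (p = 0.0547), Ccl2 at 0.27 (p = 0.130), Ccl3 at 0.16 (p = 0.463) and Il1b at 0.17 (p = 0.567). The inflammasome sensor Nlrp3 was at 0.062 and Il18 at 0.0028. Measured genes of this kind outside the list, named after their values were seen, had both signs. Negative were the chemokines Ccl6 at -0.13 (p = 0.271) and Cxcl15 at -0.19 (p = 0.270) and the cytokine Clcf1 at -0.091 (p = 0.172). Slightly positive were the cytokine Tgfb1 at 0.029 (p = 0.269) and the NF-kB regulator Nkiras1 at 0.033 (p = 0.678). The positive sign therefore held for the listed genes and not for all cytokines of the panel.

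Of the 9 listed genes, 7 were among the 120 genes with the largest standard errors. Of the 2 others, Nlrp3 and Il18, the median was 0.032. Immediate early genes, which also respond to the isolation of cells, all had positive ratios as well. As deposited by the authors, Egr1 was at 0.45 (p = 0.0709), Jun at 0.13 (p = 0.392) and Fos at 0.053 (p = 0.778), and Ccl3 belongs to that list too. Their part in the cytokine ratios was not tested.

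All 5 measured genes on the type I interferon list had positive ratios, with a median of 0.16. The receptor chain Ifnar1 was at 0.028 in the authors' deposited table, with an interval of 0.972-fold to 1.07-fold. The signal transducer Stat2 was at 0.075 (p = 0.336). The antiviral effectors had the larger ratios, with Ifit3 at 0.64 (p = 0.0650) and Mx1 at 0.55 (p = 0.182). Their intervals were wide, 0.972-fold to 2.49-fold for Ifit3 and 0.831-fold to 2.57-fold for Mx1, and each contained equality. At the unadjusted threshold was 1 gene (20% of the list). Of the 5, only Ifnar1 lay outside the 120 genes with the largest standard errors.

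Interferon-stimulated genes are switched on through a DNA element with repeated GAAA cores, and the promoters of the listed genes are shown because the listed ratios had 1 sign. Jak1, a kinase of the interferon receptor that is not on the list, was at -0.036 (p = 0.300) in the authors' deposited table. RefSeq (GRCm38.p6) promoters of 300 bases, 250 before and 50 after the start site, were found for 3 of the 5 genes, and Mx1 was not among them. They were searched for GAAANNGAA and its reverse complement TTCNNTTTC, which 8.56% of 32851 promoters of that length hold. Ifit3 held 3 matches and Stat2 held 1, all as TTCNNTTTC, and Ifnar1 held none of these letters. The windows around the matches read 5′ to 3′ on the plus strand, with the matches in capitals.
Ifit3, chr19:34583359-34583450: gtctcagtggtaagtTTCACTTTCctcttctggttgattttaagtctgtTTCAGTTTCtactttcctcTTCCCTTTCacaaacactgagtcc
Stat2, chr10:128270262-128270300: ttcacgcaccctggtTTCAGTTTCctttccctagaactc
In Ifit3 the matches lay 93, 112 and 146 bases before the start site, in Stat2 212 bases before it. A match is a description of these letters and does not show that a factor binds there. Beside them, the log2 ratio in the authors' deposited table was 0.64 for Ifit3, 0.075 for Stat2 and 0.028 for Ifnar1, and none of the 3 was at the unadjusted threshold.

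Antigen presentation included 3 of 7 genes (42.9%) at the unadjusted threshold, 2 positive and 1 negative, with a list median of 0.11 (0.055 without the 120 genes with the largest standard errors). The authors' deposited table gave the class I heavy chain H2-D1 a log2 ratio of 0.49 (interval 0.17 to 0.80, p = 0.00328, adjusted p = 0.194 by Benjamini-Hochberg). H2-D1 belongs to a family of near-identical genes, and a probe may read more than 1 of them. Tap1, which pumps peptides to class I molecules, was at 0.16 (p = 0.0239), and the class I light chain B2m at 0.11 (p = 0.0508). The non-classical class I gene H2-T23 had the opposite sign, at -0.12 (p = 0.113), and the immunoproteasome subunit Psmb8 was at 0.0032.

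On the class II side the members differed in sign. Cd74, the invariant chain, was at 0.30 (p = 0.135) in the authors' deposited table. Ctss, the protease that trims that chain, was at -0.15 (interval -0.27 to -0.041, p = 0.00885). Ctss is also a lysosomal cathepsin and is counted in that list.

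**Figure D2:**
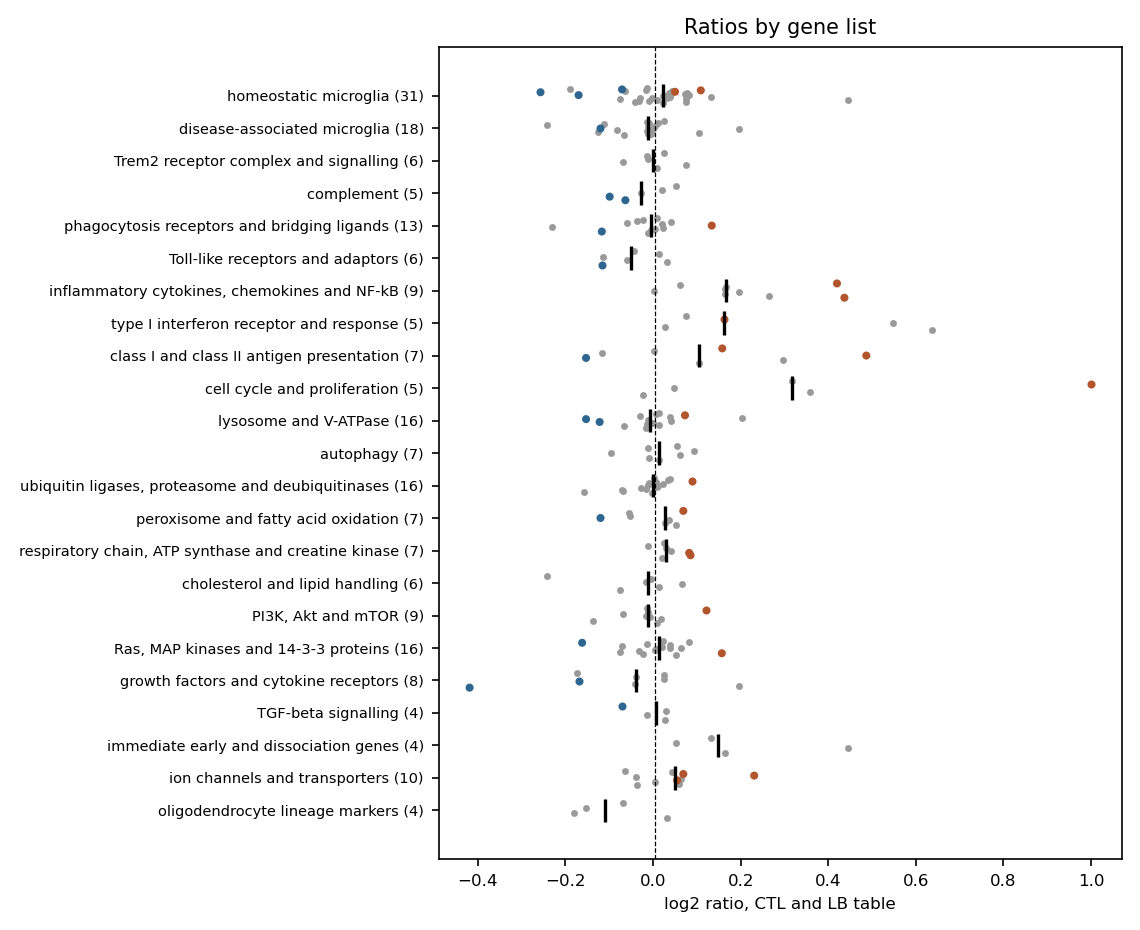
Log2 ratio in the CTL and LB table (horizontal axis) of the members of each gene list with at least 4 measured genes, whose number stands in brackets. Points are genes, coloured (orange positive, blue negative) where the unadjusted p was below 0.05. Black bars are list medians, and the dashed line is the median of all 478 genes. The cytokine, interferon and cell cycle medians lie to the right of the dashed line, at 0.17, 0.16 and 0.32.

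Proliferation genes held the largest ratio of the panel. Mki67, a protein of dividing cells, had a log2 ratio of 1.00 in the authors' deposited table, and its interval of 1.23-fold to 3.25-fold was among the widest (p = 0.00621, adjusted p = 0.198 by Benjamini-Hochberg). The mitotic cyclin Ccnb1 was at 0.36 (p = 0.120) and the microtubule regulator Stmn1 at 0.32 (p = 0.0806). The members with smaller standard errors lay close to 0, with the transcription factor E2f3 at 0.047 (p = 0.193) and the spindle checkpoint gene Bub3 at -0.023 (p = 0.555). The list had 4 of 5 positive ratios and a median of 0.32. Leaving out the 120 genes with the largest standard errors, 2 members remained, with a median of 0.012. Replication origin genes outside the list, named after their values were seen, lay between -0.035 (Orc3) and 0.033 (Orc4). The subunits of the anaphase-promoting complex, described with the ubiquitin ligases, are not on this list either and had negative ratios.

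The 16 lysosomal genes split evenly into 8 positive and 8 negative ratios, with a median of -0.0060. Ctsd, the main aspartic protease of lysosomes, was at -0.12 in the authors' deposited table (interval -0.21 to -0.038, p = 0.00551, adjusted p = 0.198 by Benjamini-Hochberg), and Ctss had the same sign. Lamp1, a protein of the lysosomal membrane, had the opposite sign, at 0.073 (p = 0.0191). Of 8 subunits of the proton pump that acidifies lysosomes, the ratio was positive for 3 and negative for 5, and none was at the unadjusted threshold. The smallest p of the pump belonged to Atp6v1b2, at -0.066 (p = 0.0769).

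The autophagy list had 4 positive and 3 negative ratios and no gene at the unadjusted threshold. Members of the Atg8 family, which build the autophagosome membrane, had opposite signs, with Gabarapl1 at -0.097 (p = 0.0680) and Map1lc3b at 0.095 (p = 0.114) in the authors' deposited table. The other members were Becn1 (0.062), Ulk1 (0.054), Atg12 (0.015), Atg5 (-0.0086) and the cargo receptor Sqstm1 (-0.011). All 7 intervals lay within 1.2-fold.

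Of 16 genes of ubiquitin ligases, the proteasome and deubiquitinases, 8 had positive and 8 had negative ratios, and only Skp1a, an adaptor of cullin ligases, was at the unadjusted threshold (0.090, p = 0.0325 in the authors' deposited table). Subunits of the anaphase-promoting complex had negative ratios, with Cdc27 at -0.070 (p = 0.0925), Cdc23 at -0.068 (p = 0.110) and Anapc7 at -0.16 (p = 0.139). Ube2d2a/b, a ubiquitin-conjugating enzyme whose probe counts a pair of genes, was at 0.091 (p = 0.0359). The 7 proteasome subunits lay between -0.011 and 0.060.

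Tripartite motif proteins, a family of ubiquitin ligases grouped by name after their values were seen, gave opposite ratios for 2 members. Trim17, as deposited by the authors, was at 0.61 (interval 0.17 to 1.05, p = 0.00757) and Trim3 at -0.18 (interval -0.30 to -0.060, p = 0.00412). The other 6 of 8 members lay between -0.095 (Trim68) and 0.037 (Trim26), none at the unadjusted threshold.

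Signalling adaptors held 1 of the 2 smallest p-values of the table. Ywhah, the eta member of the 14-3-3 proteins, which bind phosphorylated partners, had a log2 ratio of -0.16 in the authors' deposited table (interval 0.843-fold to 0.948-fold, p = 0.000423, adjusted p = 0.101 by Benjamini-Hochberg). The other 14-3-3 genes did not share that size, with Ywhaq at 0.082 (p = 0.0681), Ywhae at 0.039 (p = 0.138), Ywhaz at 0.022 and Ywhag at -0.014. The interval of Ywhah lay below those of Ywhae, Ywhaq and Ywhag and overlapped that of Ywhaz (-0.11 to 0.16). The wider list of Ras, MAP kinase and 14-3-3 genes had 10 positive and 6 negative ratios, and 2 of its 16 members (12.5%) were at the unadjusted threshold. The kinase Map2k1 was at -0.076 (p = 0.0720).

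Subunits of the AMP-activated kinase, the sensor of low cellular energy, were grouped after their values were seen and differed in sign. The regulatory beta subunits, as deposited by the authors, were at 0.12 for Prkab1 (interval 0.032 to 0.21, p = 0.00850) and -0.34 for Prkab2 (interval -0.59 to -0.085, p = 0.0102), and the gamma subunit Prkag1 at 0.043. The beta subunits can replace each other in the enzyme. In the PI3K, Akt and mTOR list, which counts Prkab1, 3 of 9 ratios were positive. There Mtor was at -0.0060 with an interval of 0.930-fold to 1.07-fold.

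On the list of growth factors and cytokine receptors, 2 of 8 genes (25%) were at the unadjusted threshold, both negative. The list counts Cd34, which is neither a growth factor nor a cytokine receptor. It had 3 positive and 5 negative ratios. Cd34, a sialomucin of stem cells and vessels, was at -0.42 in the authors' deposited table (interval -0.67 to -0.17, p = 0.00170, adjusted p = 0.194 by Benjamini-Hochberg). Csf3r, which binds granulocyte colony-stimulating factor, was at -0.17 (interval -0.27 to -0.065, p = 0.00204, adjusted p = 0.194). Kitl was at -0.17 (p = 0.251), and the growth factor Csf1 had the opposite sign, at 0.20 (p = 0.0765). The receptors Il10ra (-0.038), Ifngr2 (0.025) and Il21r (0.025) were closer to 0.

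Cd34 and Csf3r are also markers of other cells, and few such markers were measured. The authors' deposited table had the other vascular genes at -0.035 (p = 0.676) for Pecam1 and -0.18 (p = 0.364) for Cspg4. Of the oligodendrocyte genes Mag was at -0.15 (p = 0.0616) and Cnp at 0.033 (p = 0.346). The astrocyte genes Glul and Slc1a3 were at -0.047 and -0.039, and the neuronal Gad1 at -0.050. The natural killer cell receptor Klrd1 was at -0.30 with an interval of 0.492-fold to 1.35-fold, and the border macrophage gene Stab1 at 0.0097. Levels of these markers are unknown here, and their part in the Cd34 and Csf3r ratios was not tested.

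Genes used mainly by neurons, grouped after their values were seen, had 10 positive and 16 negative ratios of 26, with a median of -0.069. The 4 at the unadjusted threshold (15.4%) were all negative in the authors' deposited table. They were the lipid flippase Atp8a2 (-0.14, p = 0.0208), the membrane skeleton gene Epb41l3 (-0.19, p = 0.0437), the membrane adaptor Ank2 (-0.24, p = 0.0463) and the protease inhibitor Serpini1 (-0.26, p = 0.0474). The GABA receptor subunit Gabra5 had the third most negative ratio of the panel, -0.48, with an interval of 0.437-fold to 1.17-fold. The sodium channel Scn8a was on the positive side, at 0.18 (p = 0.0572). Microglia express some of these genes, and which cells the transcripts came from was not tested. Leaving out the 120 genes with the largest standard errors, 12 of these genes remained and their median was -0.0096.

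Mitochondrial genes had both signs. Of 7 genes on the list of the respiratory chain, ATP synthase and creatine kinase, 6 had ratios above 0 and 2 (28.6%) were at the unadjusted threshold. In the authors' deposited table Ckb, the brain creatine kinase that buffers ATP, was at 0.083 (interval 1.02-fold to 1.10-fold, p = 0.00486, adjusted p = 0.194 by Benjamini-Hochberg), and the ATP synthase subunit Atp5g3 at 0.086 (p = 0.0469). Hspa9, the chaperone that pulls proteins into mitochondria, was at 0.11 (p = 0.0140). The import receptors were at 0.070 for Tomm20 and 0.0019 for Tomm70a. Outside these lists, and named after their values were seen, the complex I subunit Ndufa10 was at 0.026, the ATP synthase subunit Atp5pb at -0.039, the fusion protein Opa1 at -0.053 and Dnajc11 at -0.11 in the authors' deposited table.

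The 4 genes of the pyruvate dehydrogenase complex, which feeds pyruvate into the citric acid cycle, were grouped after their values were seen and had ratios above 0. As deposited by the authors, they were Dlat (0.13, p = 0.0331), Pdhb (0.066, p = 0.0833), Pdha1 (0.041, p = 0.515) and Dld (0.016, p = 0.653). Genes of mitochondrial amino acid and acyl metabolism, grouped in the same way, had 6 positive and 5 negative ratios. Among them Acadsb, which oxidises short branched acyl groups, was at 0.10 (p = 0.0210), the aspartate-glutamate carrier Slc25a12 at -0.091 (p = 0.152), the thiolase Acat1 at -0.070 (p = 0.208) and the desuccinylase Sirt5 at -0.14 (p = 0.234). Glycolysis, upstream of them, had 3 negative ratios, with Hk1 at -0.051, Pgk1 at -0.011 and Pgam1 at -0.0011.

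Peroxisomal genes had both signs. Hsd17b4, an enzyme of peroxisomal beta-oxidation, was at -0.12 (p = 0.0398) and the peroxisomal membrane transporter Slc25a17 at 0.069 (p = 0.0459) in the authors' deposited table. Phyh and Scp2 were at -0.054 (p = 0.0895) and -0.054 (p = 0.0904), and Crot at 0.027. Of the mitochondrial fatty acid enzymes Acadm was at 0.053 (p = 0.0899) and Hadh at 0.036. Lipid handling genes had 2 positive and 4 negative ratios with none at the unadjusted threshold, among them the sterol exporter Abca1 (-0.076, p = 0.116) and the acyl-CoA ligases Acsl3 (0.065) and Acsl4 (-0.017).

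Among 10 channels and transporters, 3 (30%) were at the unadjusted threshold, all positive. Slc24a3, which exchanges sodium for calcium and potassium, was at 0.23 in the authors' deposited table (interval 0.081 to 0.38, p = 0.00340, adjusted p = 0.194 by Benjamini-Hochberg). P2rx7, an ATP-gated channel of microglia, was at 0.055 (p = 0.0484), and Slc25a17 was the third. The anion transporter Slco2b1 was just outside, at -0.065 (p = 0.0510).

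The remaining genes at the unadjusted threshold had varied roles. The authors' deposited table had the actin-binding peptide Tmsb4x at 0.099 (p = 0.00422), the chromatin protein Hmgb1 at 0.091 (p = 0.00585) and the vesicle adaptor Ap3m2 at 0.11 (p = 0.00778). The haem-degrading enzyme Hmox1 was at 0.24 (p = 0.0173), the pro-apoptotic Bax at 0.13 (p = 0.0463) and the inositol phosphate kinase Ip6k2 at 0.11 (p = 0.0248). The G protein subunit Gnb1 was at 0.080 (p = 0.0215) and the receptor kinase Grk3 at 0.096 (p = 0.0366). All of these were positive.

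On the negative side the lymphocyte signalling adaptor Sh2d1a was at -0.77 (p = 0.00917) and Tspo, a mitochondrial membrane protein used in imaging of activated microglia, at -0.55 (p = 0.0121) in the authors' deposited table. The interval of Sh2d1a ran from 0.395-fold to 0.870-fold and that of Tspo from 0.508-fold to 0.916-fold. The leukotriene receptor Cysltr1 was at -0.16 (p = 0.0133), the leukocyte phosphatase Ptprc at -0.10 (p = 0.0263) and the junction protein F11r at -0.10 (p = 0.0352). Xk, a membrane protein of blood cells, had the fifth most negative ratio, -0.35, with an interval of 0.597-fold to 1.04-fold.

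**Figure D3:**
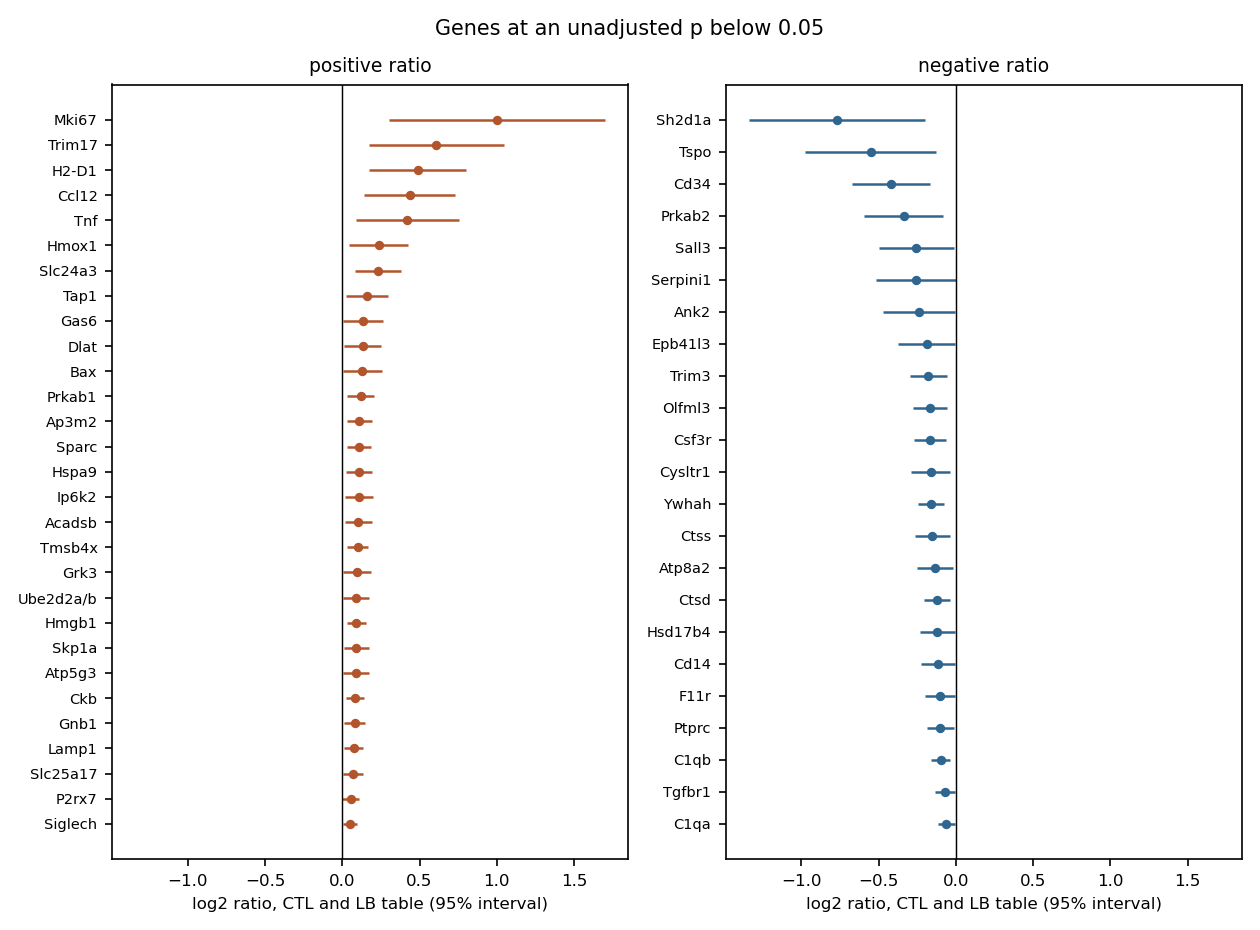
Log2 ratio in the CTL and LB table (points) with its recovered 95% interval (lines) for 52 of the 56 genes at an unadjusted p below 0.05, by sign. Intervals are wide at the top of each panel, where Mki67 (1.00) and Sh2d1a (-0.77) stand, and narrow at the bottom. The interval of Serpini1 uses the standard error of all 3 tables and just reaches 0.

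The other stress model gives a scale for these ratios. The CTL and LB and the CTL and UPS tables share the 16 CTL libraries, so their values are set side by side without a test of likeness. For Cd34 the deposited ratios were close, -0.42 with LB and -0.40 with UPS. For Cysltr1 they were -0.16 and -0.23. For Tspo they were -0.55 and 0.00089, for Mki67 1.00 and 0.52, and for Ccl12 0.44 and 0.22. Genes with sizeable ratios between CTL and UPS could be near 0 here, with Tlr7 at -0.043 against 0.45 and Mertk at 0.020 against 0.27 in the authors' deposited tables.

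The direct comparison of LB with UPS, which shares the LB libraries, sets the stress models against each other. Here 6.28% of the 478 genes had an adjusted p below 0.05 by Benjamini-Hochberg adjustment of the authors' deposited table. Of the genes named at the unadjusted threshold between CTL and LB, those with such a value were Tgfbr1 (0.18, adjusted p = 0.000180), C1qb (0.16, 0.000347), C1qa (0.13, 0.00101), Slc25a17 (-0.13, 0.00813), Ank2 (0.41, 0.0205), Ywhah (0.15, 0.0230), Atp5g3 (-0.14, 0.0277) and Ckb (-0.091, 0.0338). Against CTL, the signs of Tgfbr1, C1qa and C1qb were negative with LB and positive with UPS. The same ratio with LB enters both comparisons, so the second is not separate support for the first. For Cd34 the ratio between LB and UPS was 0.018 (p = 0.885).

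**Figure D4:**
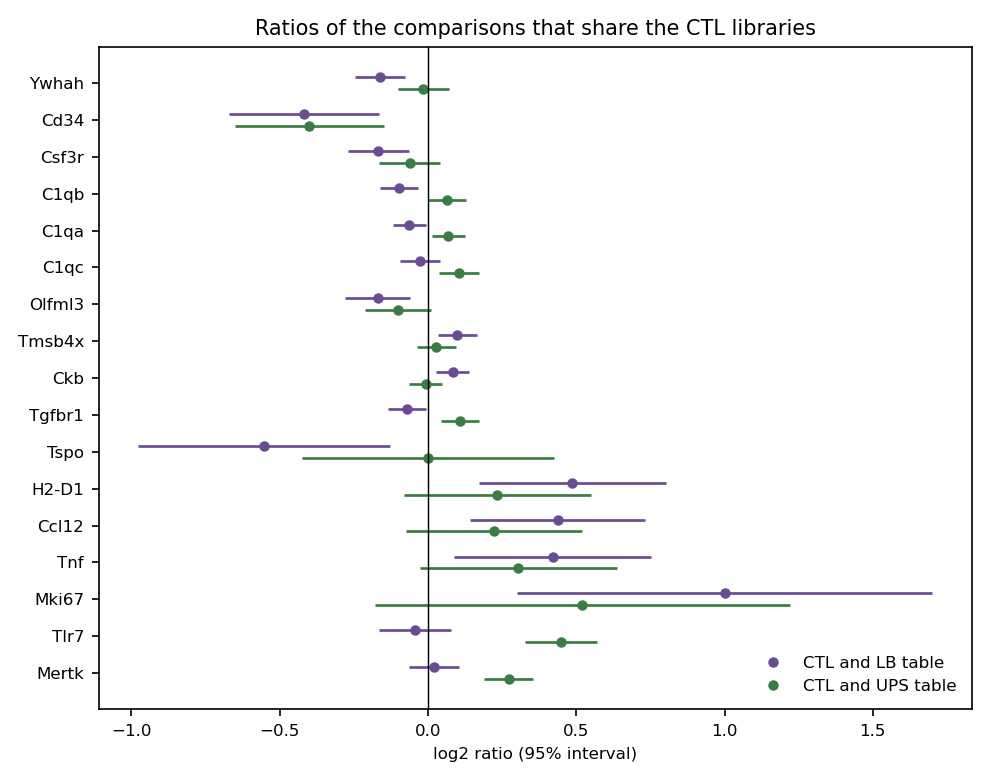
Log2 ratios (points) and recovered 95% intervals (lines) of 17 genes in the CTL and LB table and in the CTL and UPS table, which share the CTL libraries. Cd34 lies at -0.42 and -0.40, C1qb at -0.099 and 0.064, and Tlr7 at -0.043 and 0.45.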

How the data were processed

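Per the labels' protocols microglia were purified on a Percoll gradient and sorted, and 48 libraries were run in 4 batches of 12 with 2 libraries of every rearing group and sex. Only tables of the authors' own comparisons were used, and counts per library were not analysed here. Per the file headers the authors' tables list, for 478 genes, the fold change on the log2 scale and as a linear ratio, with its p-value before and after Benjamini-Hochberg adjustment. Per the series text the authors compared pairs of groups in nSolver with batch as a covariate, after a multivariate analysis of genes above 20 counts. The sources used here do not give the normalization or the software version.

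The deposited p-values were adjusted by Benjamini-Hochberg over 478 genes, with a threshold of 0.05. Each ratio's standard error was recovered from the deposited ratio and p with a t distribution, as the median over the 3 tables. The 42 residual degrees of freedom, as in 1 model of rearing and batch over 48 libraries, were inferred from the tables and not stated. The recovery was tested on data simulated from that same model, which cannot show that the authors fitted it. The recovered standard error differed by over 2% between tables for 30 genes. No model was refitted (Python 3.11.15, scipy 1.17.1).

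The genes and lists were chosen with earlier results of these data known, and further families after their values were seen. Named genes were those at an unadjusted p below 0.05, the 5 largest ratios of each sign, the 5 narrowest intervals, the leading members of each list (all where at most 8 were measured) and microglial markers. Some genes that this rule names are not reported here. Alternatives were joint, Bonferroni and deposited adjustment, centring on the median ratio, leaving out the 120 genes with the largest standard errors, a stricter p, other degrees of freedom and other interval limits.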

Additional observations from a re-analysis of the deposited data

How the results depend on the processing

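The count of 0 genes past the adjusted threshold held with ratios centred on their median and without the 120 genes with the largest standard errors. It became 3 when the 3 tables were adjusted together. Bonferroni adjustment, never less strict, had to give 0 as well, and the deposited adjusted p, which also gave 0, repeats the same adjustment. The count of 56 at an unadjusted p below 0.05 was 52 after centring and 39 without those genes. The 39 is fewer by construction, because 17 of the 120 genes left out were at that threshold (14.2%, beside 11.7% of all genes). The count was 55 with the standard error of all 3 tables, an alternative chosen after seeing the data. At a p below 0.01 it was 21, fewer by construction. The share of positive ratios was 52.7%, and 55% without those genes. After centring on the median it was 50% by construction. The 393 genes with intervals within 1.2-fold became 354 with 99% intervals and 217 with a limit of 1.1-fold. Other degrees of freedom moved the median standard error by less than 0.0011.

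Without the same 120 genes, the medians of 34 of 39 lists with at least 3 measured members moved by less than the median standard error of their members. Those of 3 lists moved by more, to 0.028 for interferon, 0.012 for cell cycle and 0.033 for oligodendrocyte genes, with 1 or 2 members left. The other 2 lists, immediate early and vascular genes, kept no member. The median changed sign for 4 lists, the oligodendrocyte list among them, and the other 3 stayed near 0: phagocytosis turned to 0.00099, ubiquitin and proteasome genes to 0.0024 and tripartite motif proteins to -0.012. No paired analysis was possible because values per library were not used here and the results come from deposited comparisons. Leaving out single replicates was not run for the same reason, and which library decides a ratio is unknown.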

Other observations

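Of the 478 genes, 278 belonged to at least 1 of the lists and 200 to none. The unadjusted threshold was met by 45 genes inside the lists and 11 outside, beside 56 of all 478 (11.7%). Lists were chosen with earlier results known, and some after the values were seen. The split is therefore partly set by that choice and is not a result about the lists. Just outside that threshold in the authors' deposited table lay B2m, the light chain of class I molecules, at 0.11 (p = 0.0508), Slco2b1 at -0.065 (p = 0.0510), P2ry12 at 0.082 (p = 0.0510), Il1a at 0.16 (p = 0.0547) and Dagla, an endocannabinoid-producing lipase, at -0.087 (p = 0.0554). Just inside it lay P2rx7 at 0.055 (p = 0.0484).

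Vesicle coat and adaptor genes, which shape endocytic and lysosomal vesicles, were grouped after their values were seen, and 4 of 4 had ratios above 0. Besides Ap3m2, the authors' deposited table had Clta (0.046), Ap2m1 (0.028) and Cltc (0.017). Sec23a, a vesicle coat gene outside the group, had a negative ratio there (-0.054, p = 0.306). Of 13 actin regulators grouped in the same way, 9 had ratios above 0, and only Tmsb4x was at the unadjusted threshold. Of 5 purinergic receptors, 4 had ratios above 0 as deposited by the authors, P2ry12, P2ry13, P2ry6 (0.040) and P2rx7, and the adenosine receptor Adora3 a negative one (-0.017). Of the JAK and STAT genes Jak2 was at 0.069, Stat3 at 0.025 and Jak1 at -0.036.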
